A study of Mus musculus with 12 samples.

Results

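The genes described here encode RNA polymerase I subunits and nucleolar proteins that build the ribosome. They were taken from a fixed list of 46 symbols, of which 45 had a probe set with 1 gene symbol, against 13180 genes tested in all; Noc2l was not analysed here. A gene was represented by the probe set with the highest mean over the 12 arrays, and all 45 passed the filter on low values. All groups are cultures of 1 mouse leukaemia clone (number 483, C57BL6) of the T cell acute lymphoblastic type, T-ALL. Treated cells were kept for 2 h in 100 µM 4EGI-1, an inhibitor that keeps eIF4E, which binds the mRNA cap, from docking on its scaffold eIF4G. Control cells are untreated by the labels and had DMSO by the protocol. Both fractions of each condition, cytoplasmic RNA and RNA from pooled polysomes of a sucrose gradient, were profiled on 3 arrays each. The groups are therefore cytoplasmic control, cytoplasmic 4EGI-1, polysomal control and polysomal 4EGI-1. Sample titles call the cytoplasmic fraction total RNA. Replicates are called biological in the design, and p-values measure only the spread between these arrays.

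Ribosome synthesis starts in the nucleolus, where RNA polymerase I transcribes a long precursor of the ribosomal RNAs. The small-subunit processome folds and cuts this precursor around the future small subunit, while a separate set of factors assembles the large subunit. Small nucleolar ribonucleoproteins (snoRNPs) modify the RNA: box C/D particles add methyl groups to ribose and box H/ACA particles convert uridine to pseudouridine. Growing lymphoid cells depend on this pathway, and MYC, which is often active in T-ALL, is a known activator of many of its genes.

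Values are log2 array signals, and a change is a difference of group means on that scale with its standard error (SE). Cytoplasmic RNA reports RNA level; polysomal RNA reports level and association with polysomes together. Arrays had been brought to a common scale, so the total polysomal RNA of a culture is not measured, and fewer cells of a type and less RNA per cell cannot be told apart in such bulk samples. Within a group, arrays correlated at 0.985 to 0.997 across genes. The median gene had a standard deviation (SD) of 0.133 and 0.121 in the cytoplasmic control and 4EGI-1 arrays, against 0.0745 and 0.0761 in the polysomal ones. Of 16 T cell markers, 14 were on the array and all 14 passed the filter, with means of 6.61 to 12.2. Of the B cell, myeloid and erythroid markers on the array, 2 of 4, 2 of 5 and 2 of 2 passed it, and none had a mean above 6.98.

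In polysomal RNA, some of these genes rose with 4EGI-1 and others fell. The nucleolar repressor protein Mybbp1a, the processome scaffolds Heatr1 and Utp20 and the catalytic polymerase subunit Polr1a, all large proteins, rose 2.03- to 2.80-fold. The 6 genes that fell encode small proteins: Nop10 of the H/ACA particle, to 57.1% of control, and Imp3, Nop16, Nhp2, Nip7 and Gar1. In all, 14 of 45 genes (31.1%) rose and 6 (13.3%) fell, where 13.0% of all genes tested rose and 12.1% fell. The share that fell was thus near that of all genes. Their median change was 0.02, with a range from -0.81 to 1.48, against a median of -0.03 for all genes. A gene passed here and below when its p-value from limma, adjusted by Benjamini-Hochberg over the 13180 genes, was under 0.05. All 20 genes that passed had polysomal 4EGI-1 arrays that did not overlap the polysomal control arrays. This follows largely from picking genes by p with 3 arrays a group, so it is no separate support. Some genes that did not pass, such as Nop58 and Npm1, did not overlap either.

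In cytoplasmic RNA fewer of the genes moved. Noc3l and Nop14 rose, and Nop16, Imp3, Nhp2, Polr1b and Nop10 fell, which is 4.44% and 11.1% of the 45, where 10.1% and 7.79% of all genes tested rose and fell. The median change was -0.03, as for all genes. Nop16, Imp3, Nhp2 and Nop10 fell in both fractions, Noc3l and Nop14 rose in both, and Polr1b fell in cytoplasmic and rose in polysomal RNA. The other 11 genes that rose in polysomal RNA (Ddx21, Ftsj3, Heatr1, Mybbp1a, Nop2, Nop56, Polr1a, Rrp12, Utp14a, Utp20 and Wdr75) did not pass in cytoplasmic RNA. In a fit to the cytoplasmic arrays alone, only Nop16 and Imp3 still passed there. Of all genes, 731 rose and 369 fell in that fit, against 1325 and 1027 in the main fit. With 1 array left out, the number that fell was 3 (without control array 3 or 4EGI-1 array 1 or 2) to 9 (without control array 2 or 4EGI-1 array 3), while 1 gene rose without control array 1 or 3 or 4EGI-1 array 1 or 2. Among all genes, 585 to 667 fell in the settings with 3, and 1581 and 1615 in those with 9. In the settings where 1 gene rose, 862 to 1173 of all genes rose. The counts of all genes thus moved the same way.

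Whether the effect differed between the fractions was tested directly, as the polysomal change minus the cytoplasmic change. This difference was positive and passed for 6 genes, Mybbp1a, Polr1a, Heatr1, Utp20, Polr1b and Ddx21 (13.3% of the 45), and negative for none, where 2.31% of all genes tested passed with a positive and 0.607% with a negative difference. The smallest differences among the 6 were those of Ddx21 and Polr1b. At an unadjusted p under 0.05 there were 13 positive differences and 1 negative one, that of Nop10. Here and below, the share of all genes at this unadjusted threshold was not counted, so such counts have no background beside them. The test of the difference uses the same arrays as the comparisons within each fraction, and their values are given side by side.

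**Figure D1:**
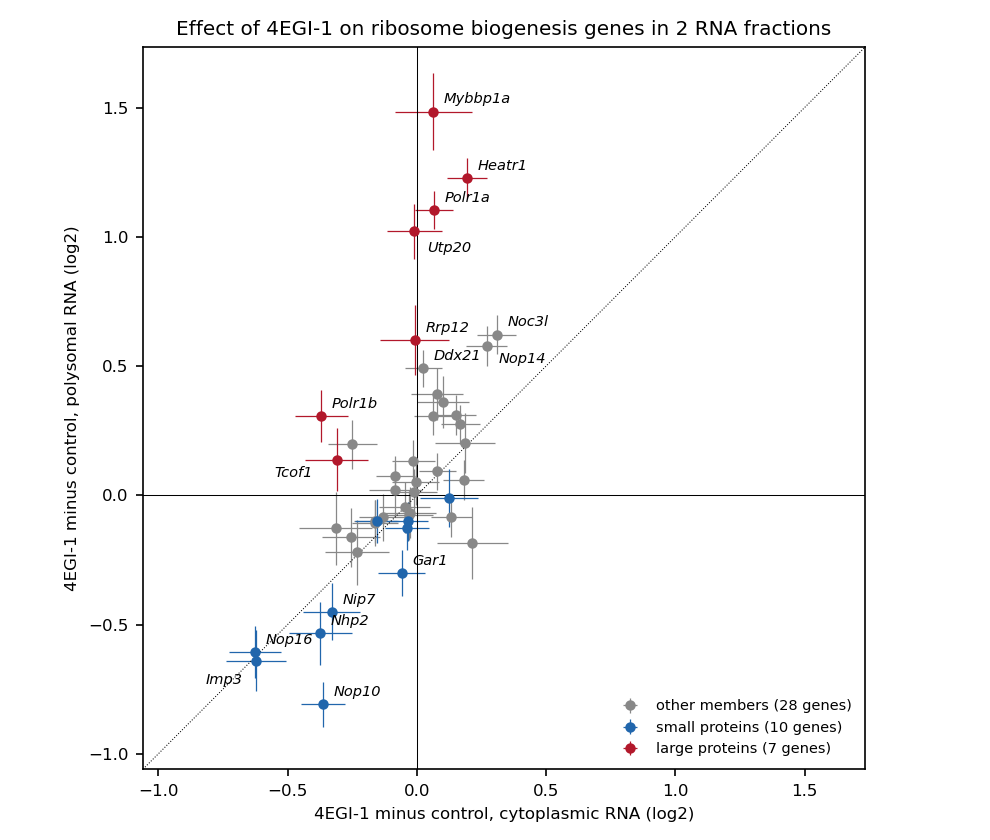
Change with 4EGI-1 in cytoplasmic RNA (horizontal axis) against that in polysomal RNA (vertical axis), both log2, for 45 genes, with bars of 1 SE; red points are 7 genes for large proteins, blue points 10 genes for small ones, and the dotted line marks equal change. Mybbp1a, Heatr1, Polr1a and Utp20 stand between 1.02 and 1.48 on the vertical axis and between -0.01 and 0.19 on the horizontal one, while Imp3 and Nop16 lie near the dotted line at about -0.6 in both.

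RNA polymerase I was represented by 4 subunits, of which 2 rose in polysomal RNA, where 13.0% of all genes tested rose. Polr1a is the largest, catalytic subunit. It read 9.87, 9.79 and 9.92 in cytoplasmic control, 9.87, 9.90 and 10.00 in cytoplasmic 4EGI-1, 8.44, 8.54 and 8.55 in polysomal control and 9.62, 9.60 and 9.63 in polysomal 4EGI-1. The polysomal control arrays were the lowest of the 4 groups by more than a log2 unit, and the treated polysomal arrays lay just under the cytoplasmic ones, which overlapped each other. The polysomal change was 1.10 ± 0.07 (SE, n = 3 arrays a group; limma adjusted p = 1.57e-07), the cytoplasmic change 0.07 ± 0.07 (adjusted p = 0.591) and their difference 1.04 ± 0.10 (adjusted p = 8.19e-05).

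Polr1b, the second-largest subunit, which forms the active centre together with Polr1a, changed in opposite directions in the fractions. Its signals were 8.99, 8.85 and 9.01 in cytoplasmic control, 8.48, 8.41 and 8.85 in cytoplasmic 4EGI-1, 8.41, 8.48 and 8.50 in polysomal control and 8.83, 8.72 and 8.76 in polysomal 4EGI-1. Cytoplasmic 4EGI-1 array 3 equalled the lowest control array to 2 decimals, and the other 2 lay well below. The cytoplasmic change was -0.37 ± 0.10 (limma adjusted p = 0.02), the polysomal change 0.31 ± 0.10 (adjusted p = 0.0372) and the difference 0.68 ± 0.14 (adjusted p = 0.018). These calls are narrow: the polysomal one was lost without any single polysomal array (adjusted p of 0.0628 to 0.125), the cytoplasmic one without control array 1 or 3 or 4EGI-1 array 1 or 2 (0.0644 to 0.0942), and that of the difference without array 1 of any of the 4 groups or array 3 of polysomal 4EGI-1 (0.0509 to 0.0611).

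Polr1c, shared with RNA polymerase III, and Polr1e, part of the polymerase I subcomplex that aids initiation and elongation, did not pass in either fraction. Polr1e read 10.31, 10.25 and 10.22 in cytoplasmic control, 10.14, 10.00 and 10.16 in cytoplasmic 4EGI-1, 10.32, 10.07 and 10.18 in polysomal control and 10.21, 9.96 and 10.07 in polysomal 4EGI-1. Its polysomal arrays overlapped between the conditions, with a change of -0.11 ± 0.09 (limma adjusted p = 0.439). The polysomal change of Polr1c was 0.01 ± 0.09 (adjusted p = 0.941).

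Of 16 genes for the small-subunit processome and the maturation of the 40S subunit, 6 rose and 1 fell in polysomal RNA. That is 37.5% and 6.25%, where 13.0% and 12.1% of all genes tested rose and fell. Heatr1, a long helical-repeat protein of the processome that also acts in polymerase I transcription, had signals of 10.69, 10.70 and 10.57 in cytoplasmic control, 10.93, 10.80 and 10.82 in cytoplasmic 4EGI-1, 9.41, 9.56 and 9.43 in polysomal control and 10.69, 10.68 and 10.72 in polysomal 4EGI-1. The polysomal control arrays stood alone at the bottom, and the treated polysomal arrays fell within the range spanned by the cytoplasmic ones. Heatr1 thus rose 2.34-fold in polysomal RNA, by 1.23 ± 0.08 (limma adjusted p = 9.87e-08), beside 0.19 ± 0.08 in cytoplasmic RNA (adjusted p = 0.0957), and the difference was 1.03 ± 0.11 (adjusted p = 0.000111).

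Utp20, another large scaffold of the processome, gave 9.81, 9.40 and 9.52 in cytoplasmic control, 9.55, 9.42 and 9.74 in cytoplasmic 4EGI-1, 8.13, 8.27 and 8.19 in polysomal control and 9.25, 9.13 and 9.27 in polysomal 4EGI-1. Again only the polysomal control arrays were far below the rest. The polysomal change was 1.02 ± 0.11 (limma adjusted p = 6.72e-06), the cytoplasmic change -0.01 ± 0.11 (adjusted p = 0.964) and the difference 1.03 ± 0.15 (adjusted p = 0.00114). Rrp12, a large export and maturation factor of pre-ribosomes, rose by 0.60 ± 0.13 in polysomal RNA (adjusted p = 0.00367) at a cytoplasmic change of -0.01. Its difference of effects, 0.61 ± 0.19, did not pass (adjusted p = 0.123), and passed without cytoplasmic control array 2 or 4EGI-1 array 3 (0.0315 and 0.011).

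Nop14, a processome protein that forms a complex with Noc4l, rose in both fractions. Its signals were 10.20, 10.25 and 10.22 in cytoplasmic control, 10.55, 10.51 and 10.42 in cytoplasmic 4EGI-1, 10.16, 10.16 and 10.33 in polysomal control and 10.79, 10.71 and 10.87 in polysomal 4EGI-1. Treated arrays were above control arrays in each fraction without overlap. The changes were 0.58 ± 0.08 in polysomal RNA (limma adjusted p = 6.87e-05) and 0.27 ± 0.08 in cytoplasmic RNA (adjusted p = 0.0257). The latter did not pass without cytoplasmic control array 1 or 3 or 4EGI-1 array 1 or 2 (0.0539 to 0.101).

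Imp3, a small protein that joins the U3 snoRNA to the precursor, was the processome gene that fell. It read 9.77, 9.71 and 10.18 in cytoplasmic control, 9.42, 9.10 and 9.27 in cytoplasmic 4EGI-1, 9.96, 9.93 and 9.77 in polysomal control and 9.33, 9.24 and 9.17 in polysomal 4EGI-1. All treated arrays were below all control arrays in both fractions. The changes were nearly equal, -0.62 ± 0.12 in cytoplasmic (limma adjusted p = 0.00182) and -0.64 ± 0.12 in polysomal RNA (adjusted p = 0.00089), with a difference of -0.02 ± 0.17.

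The remaining processome genes moved less. Utp14a, a cofactor of a processome helicase, rose by 0.31 ± 0.08 (limma adjusted p = 0.0069) and Wdr75, of the subcomplex tied to transcription, by 0.28 ± 0.08 (adjusted p = 0.0134) in polysomal RNA. The call of Wdr75 was lost without polysomal control array 2 or 4EGI-1 array 1 (0.0616 and 0.0566). Utp15, Utp18, Wdr43, Mphosph10, Imp4, Noc4l, Rrp9, Bysl and Pno1, the 9 others of this role, did not pass in polysomal RNA and ranged from -0.18 for Utp18 to 0.20 for Mphosph10. Imp4 and Mphosph10, the partners of Imp3 at the U3 snoRNP, had polysomal changes of -0.01 ± 0.11 and 0.20 ± 0.12.

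**Figure D2:**
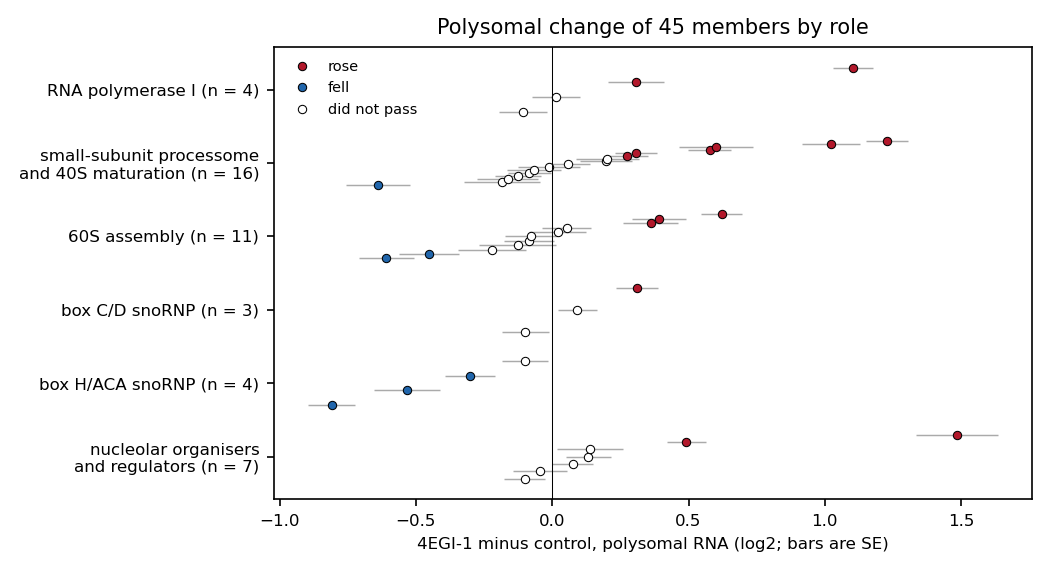
Polysomal change with 4EGI-1 (horizontal axis, log2, bars of 1 SE) of 45 genes sorted by role; red points rose, blue points fell and open points did not pass. Genes that rose appear in 5 of the 6 roles, and all 4 box H/ACA genes lie left of 0.

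Of 11 genes for assembly of the 60S subunit, 3 rose and 2 fell in polysomal RNA. That is 27.3% and 18.2%, beside 13.0% and 12.1% of all genes tested, and the counts are small. Noc3l, which acts early in large-subunit assembly, had signals of 9.26, 9.30 and 9.11 in cytoplasmic control, 9.57, 9.47 and 9.55 in cytoplasmic 4EGI-1, 8.97, 8.96 and 9.04 in polysomal control and 9.64, 9.62 and 9.58 in polysomal 4EGI-1. Treated arrays lay above control arrays in both fractions. The polysomal change was 0.62 ± 0.08 (limma adjusted p = 2.42e-05), the cytoplasmic change 0.31 ± 0.08 (adjusted p = 0.00978) and the difference 0.31 ± 0.11 (adjusted p = 0.167).

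Ftsj3, an RNA methyltransferase of pre-ribosomes, gave 10.59, 10.54 and 10.26 in cytoplasmic control, 10.57, 10.46 and 10.61 in cytoplasmic 4EGI-1, 10.18, 10.18 and 10.45 in polysomal control and 10.66, 10.63 and 10.69 in polysomal 4EGI-1. The cytoplasmic arrays overlapped and the polysomal ones did not. It rose by 0.39 ± 0.10 in polysomal RNA (limma adjusted p = 0.00836). Nop2, a cytosine methyltransferase of the large-subunit RNA, rose by 0.36 ± 0.10 (adjusted p = 0.0147), a call lost without polysomal control array 1 or 2 or 4EGI-1 array 3 (0.0508 to 0.0581).

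Nop16, a small nucleolar protein of large-subunit precursors, fell alike in both fractions. It read 8.83, 9.17 and 9.03 in cytoplasmic control, 8.41, 8.44 and 8.29 in cytoplasmic 4EGI-1, 9.80, 9.59 and 9.45 in polysomal control and 9.00, 9.02 and 8.99 in polysomal 4EGI-1. Within each fraction the treated arrays were all lower, and the polysomal signal exceeded the cytoplasmic one in both conditions. The changes were -0.63 ± 0.10 (limma adjusted p = 0.000546) and -0.61 ± 0.10 (adjusted p = 0.000403).

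Nip7, a small factor needed for 27S precursor processing, had signals of 9.11, 9.11 and 9.49 in cytoplasmic control, 9.00, 8.70 and 9.03 in cytoplasmic 4EGI-1, 9.65, 9.60 and 9.49 in polysomal control and 9.13, 9.10 and 9.15 in polysomal 4EGI-1. Treated arrays were lower than control arrays in each fraction. It fell by 0.45 in polysomal RNA (SE 0.11, limma adjusted p = 0.00687). The cytoplasmic change of -0.33 ± 0.11 missed the threshold (adjusted p = 0.0526), and passed without cytoplasmic control array 1 or 2 or 4EGI-1 array 3 (0.0281 to 0.0466). The PeBoW complex, which is needed for large-subunit processing, did not pass in either fraction: Bop1, Pes1 and Wdr12 had polysomal changes of -0.13, 0.05 and -0.08. Bop1 passed as lower in cytoplasmic RNA without control array 2 or 4EGI-1 array 3 (adjusted p of 0.0421 and 0.00254). Rrp1b, Rrs1 and Ebna1bp2 did not pass either, at 0.02, -0.22 and -0.08 in polysomal RNA. The 2 probe sets of Wdr12 gave polysomal changes of -0.08 and 0.01, and neither passed.

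The box C/D core proteins changed little. Nop56, one of the paired scaffold proteins of the particle, read 12.55, 12.44 and 12.40 in cytoplasmic control, 12.64, 12.50 and 12.69 in cytoplasmic 4EGI-1, 12.28, 12.23 and 12.29 in polysomal control and 12.62, 12.52 and 12.59 in polysomal 4EGI-1. The polysomal control arrays were the lowest, and the cytoplasmic conditions overlapped. It rose by 0.31 ± 0.08 in polysomal RNA (limma adjusted p = 0.00721).

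Nop58, the partner of Nop56, gave 11.45, 11.55 and 11.44 in cytoplasmic control, 11.57, 11.60 and 11.50 in cytoplasmic 4EGI-1, 11.61, 11.53 and 11.63 in polysomal control and 11.68, 11.69 and 11.69 in polysomal 4EGI-1. Its polysomal arrays did not overlap, yet the change of 0.09 ± 0.07 did not pass (limma adjusted p = 0.397). Fbl, the methyltransferase of the particle, had signals of 11.25, 11.38 and 11.52 in cytoplasmic control, 11.24, 11.28 and 11.17 in cytoplasmic 4EGI-1, 11.64, 11.42 and 11.51 in polysomal control and 11.40, 11.41 and 11.45 in polysomal 4EGI-1. The arrays of its conditions overlapped in both fractions, and a change of -0.10 ± 0.09 in polysomal RNA did not pass (adjusted p = 0.462). Its dimmer probe set gave 0.08 ± 0.08.

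In contrast, 3 of the 4 box H/ACA genes fell in polysomal RNA and none rose, where 12.1% of all genes tested fell. Nop10, the smallest core protein of the particle, read 11.47, 11.68 and 11.59 in cytoplasmic control, 11.30, 11.29 and 11.06 in cytoplasmic 4EGI-1, 11.84, 11.90 and 11.94 in polysomal control and 11.06, 11.15 and 11.05 in polysomal 4EGI-1. Treated arrays were below control arrays in both fractions. Polysomal control arrays were the highest of all 12, and polysomal and cytoplasmic 4EGI-1 arrays overlapped. The polysomal change was -0.81 ± 0.09 (limma adjusted p = 7.35e-06), the cytoplasmic change -0.36 ± 0.09 (adjusted p = 0.00821) and the difference -0.45 ± 0.12 (adjusted p = 0.0652). This difference passed with a mean-dependent prior (0.0223) and without cytoplasmic control array 2 or 4EGI-1 array 3 (0.0308 and 0.0153).

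Nhp2, which binds the H/ACA guide RNA, had signals of 8.77, 8.69 and 9.23 in cytoplasmic control, 8.46, 8.43 and 8.67 in cytoplasmic 4EGI-1, 8.91, 9.04 and 9.07 in polysomal control and 8.38, 8.49 and 8.54 in polysomal 4EGI-1. Every treated array was lower than every control array of its fraction, and cytoplasmic control array 3 was the highest of all. It fell by 0.53 in polysomal RNA (SE 0.12, limma adjusted p = 0.00418). The cytoplasmic change was -0.37 ± 0.12 (adjusted p = 0.0449), a call lost without cytoplasmic control array 3 (-0.21, adjusted p = 0.172), without 4EGI-1 array 1 or 2 (0.141 and 0.14) and without any one of the 6 polysomal arrays, which share in the estimate of the spread (0.057 to 0.0613).

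Gar1, which helps to release the modified RNA, gave 9.01, 9.34 and 9.26 in cytoplasmic control, 9.24, 9.09 and 9.10 in cytoplasmic 4EGI-1, 9.67, 9.60 and 9.52 in polysomal control and 9.33, 9.25 and 9.31 in polysomal 4EGI-1. The polysomal groups were apart and the cytoplasmic groups overlapped. It fell by 0.30 in polysomal RNA (SE 0.09, limma adjusted p = 0.0234), a call lost without polysomal control array 1 or 2 or any one 4EGI-1 array (0.0506 to 0.0984). Dkc1, the pseudouridine synthase itself and the largest protein of the particle, changed by -0.10 ± 0.08 (adjusted p = 0.445). The genes that fell were those for the small proteins of the particle, so role and protein size cannot be told apart here.

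**Figure D3:**
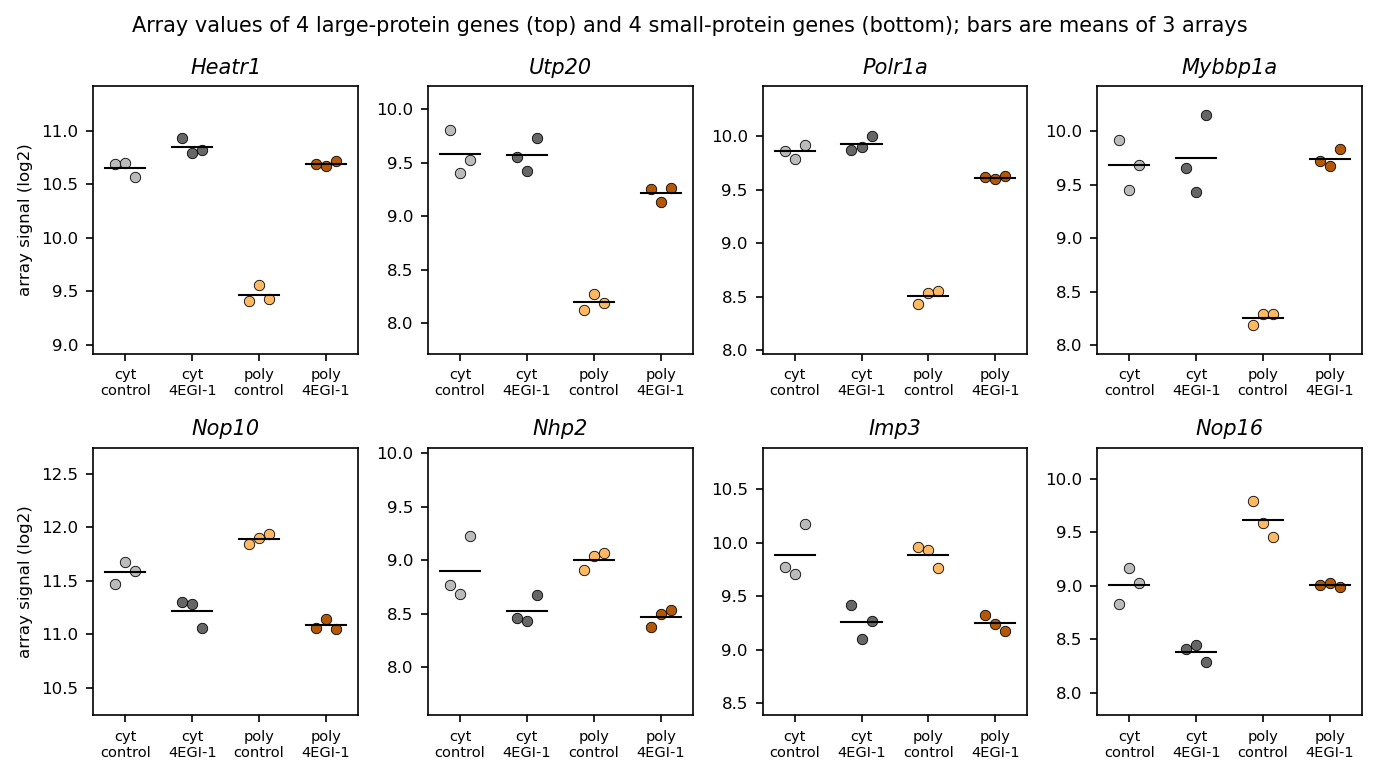
Array signal (log2) of 4 genes for large proteins (top) and 4 for small proteins (bottom) in the 4 groups; each point is 1 array, bars are means of 3 arrays, and all panels span the same range. In the top panels the polysomal control arrays are the lowest. The polysomal 4EGI-1 arrays of Polr1a and Utp20 also lie below the cytoplasmic ones, by less. In the bottom panels the treated arrays of both fractions are below the control arrays of the same fraction.

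Among 7 nucleolar organisers and regulators, 2 rose in polysomal RNA (28.6%, beside 13.0% of all genes tested). Mybbp1a, a large nucleolar protein that binds MYB and restrains polymerase I transcription, had signals of 9.92, 9.45 and 9.68 in cytoplasmic control, 9.65, 9.43 and 10.15 in cytoplasmic 4EGI-1, 8.19, 8.29 and 8.29 in polysomal control and 9.72, 9.67 and 9.83 in polysomal 4EGI-1. The cytoplasmic arrays spread widely and overlapped, the treated polysomal arrays fell among them, and the polysomal control arrays were lower than all others. At 1.48 ± 0.15 (2.80-fold; limma adjusted p = 4.81e-06) its polysomal change was the largest of the 45 genes. The cytoplasmic change was 0.06 ± 0.15 (adjusted p = 0.818) and the difference 1.42 ± 0.21 (adjusted p = 0.00129).

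Ddx21, an RNA helicase that couples polymerase I transcription and RNA processing, read 10.40, 10.50 and 10.46 in cytoplasmic control, 10.51, 10.47 and 10.46 in cytoplasmic 4EGI-1, 9.99, 10.12 and 10.13 in polysomal control and 10.61, 10.56 and 10.53 in polysomal 4EGI-1. Polysomal control arrays were the lowest and the treated polysomal arrays the highest of the 12. It rose by 0.49 ± 0.07 in polysomal RNA (limma adjusted p = 0.000145) against 0.02 ± 0.07 in cytoplasmic RNA. The difference of 0.47 ± 0.10 (adjusted p = 0.0209) did not pass without polysomal control array 1 or 4EGI-1 array 1 or 3 (0.0525 to 0.0743), or with no filter on low values (0.0528).

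Ncl, the abundant histone chaperone and RNA-binding protein nucleolin, gave 12.39, 12.24 and 12.37 in cytoplasmic control, 12.23, 12.28 and 12.45 in cytoplasmic 4EGI-1, 12.02, 11.95 and 12.07 in polysomal control and 12.14, 12.22 and 12.07 in polysomal 4EGI-1. Its polysomal change was 0.13 ± 0.08 (limma adjusted p = 0.285), and it passed when the arrays were quantile-normalized again (0.22, adjusted p = 0.0391). Tcof1, the large phosphoprotein treacle that anchors polymerase I at the ribosomal genes, was at 9.35, 9.09 and 9.52 in cytoplasmic control, 8.87, 8.85 and 9.30 in cytoplasmic 4EGI-1, 8.87, 8.92 and 8.95 in polysomal control and 9.07, 9.11 and 8.97 in polysomal 4EGI-1. Of the 7 genes listed below as large proteins, it alone did not pass in polysomal RNA (0.14 ± 0.12, adjusted p = 0.474). In cytoplasmic RNA its change of -0.31 ± 0.12 passed only when control array 2 or 4EGI-1 array 3 was left out (0.0196 and 0.00623). Npm1, Nolc1 and Gnl3, which chaperone, organise and regulate the nucleolus, had polysomal changes of -0.10, 0.08 and -0.05, and none passed.

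The contrast between large and small proteins was then described over lists of 7 and 10 genes, picked by hand with results of these arrays known. The lists are not a full sorting by size, so the medians below hold for the listed genes only and can depend on which were listed. Protein length was not measured, and the other 28 genes can include proteins as large or as small. The large list holds Heatr1, Utp20, Polr1a, Polr1b, Mybbp1a, Tcof1 and Rrp12, and the small list Nop10, Nhp2, Gar1, Nip7, Imp3, Imp4, Pno1, Nop16, Npm1 and Fbl. In polysomal RNA 6 of 7 large-list genes rose and none fell, with a median change of 1.02, while 6 of 10 small-list genes fell and none rose, with a median of -0.38. Of the other 28 genes, 8 rose and none fell, with a median of 0.06. Of all genes tested, 13.0% rose and 12.1% fell. In cytoplasmic RNA 1 large-list gene and 4 small-list genes fell and none rose, with medians of -0.01 and -0.24, where 10.1% of all genes rose and 7.79% fell. In the difference of effects 5 large-list genes and no small-list gene passed, with medians of 1.03 and -0.11. Among all genes, 2.31% passed with a positive and 0.607% with a negative difference. At an unadjusted p under 0.05, no large-list gene and none of the other 28 was lower in polysomal RNA and no small-list gene was higher in any of the 3 comparisons, while 1 large-list gene was higher in cytoplasmic RNA and 1 small-list gene had a negative difference. These lists were made with results of these arrays known, and no test was applied to them. Genes outside this pathway were not sorted by protein size, so whether they move in the same way was not tested.

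On single arrays, the median of the large list minus that of the small list, after each gene was set relative to its mean over the 12 arrays, was 0.36, 0.15 and 0.30 in cytoplasmic control, 0.44, 0.29 and 0.72 in cytoplasmic 4EGI-1, -1.37, -1.16 and -1.12 in polysomal control and 0.17, 0.12 and 0.18 in polysomal 4EGI-1. The group means were 0.27 ± 0.11, 0.48 ± 0.22, -1.22 ± 0.13 and 0.16 ± 0.03 (SD, n = 3 arrays). Polysomal control arrays were the lowest by far, and the other 3 groups lay between 0.12 and 0.72. The median change of the large list exceeded that of the small list by 1.40 in polysomal RNA and by 0.23 in cytoplasmic RNA. The second of these was 0.0636 without cytoplasmic 4EGI-1 array 3 and 0.38 without cytoplasmic control array 1.

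**Figure D4:**
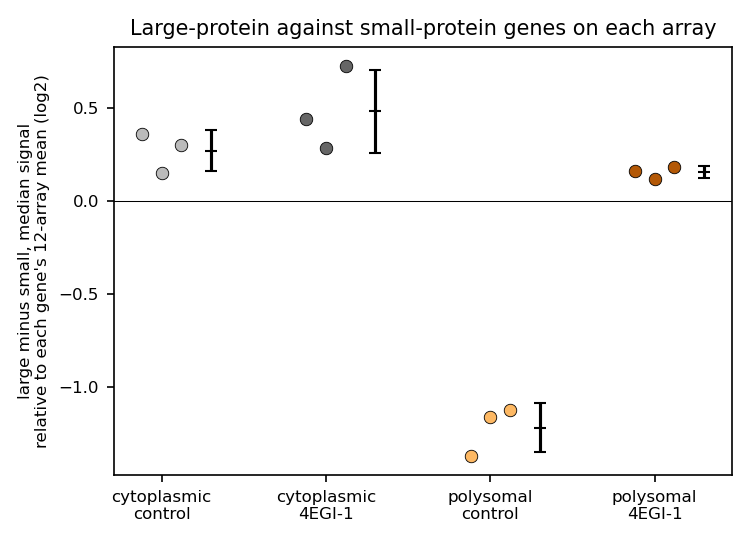
Median signal of 7 genes for large proteins minus that of 10 genes for small proteins on each array (log2, each gene relative to its mean over the 12 arrays); bars at the right of each group are the mean and SD of 3 arrays. Polysomal control arrays lie between -1.37 and -1.12, and the arrays of the other groups between 0.12 and 0.72.

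The polysomal arrays were also set against the cytoplasmic arrays of the same condition, which uses the same 12 arrays. In control cells 11 of the 45 genes were higher in polysomal RNA and 11 lower (24.4% each), where 16.7% of all genes tested were higher and 12.2% lower. All 7 large-list genes were lower, with differences of -1.42 for Mybbp1a, -1.38 for Utp20, -1.35 for Polr1a, -1.19 for Heatr1, -0.90 for Rrp12, -0.49 for Polr1b and -0.40 for Tcof1, so that Mybbp1a stood at 37.2% of its cytoplasmic signal. Nop2, Ddx21, Ncl and Noc3l were lower as well, with differences of -0.56, -0.38, -0.32 and -0.23. Among the genes that were higher, Utp18 led with 0.89 ± 0.14 (limma adjusted p = 0.000251), ahead of Nop16 at 0.61 and Rrs1 at 0.54. Wdr12, Gar1, Ebna1bp2, Mphosph10, Nip7, Nop10, Pno1 and Wdr43 also passed, at 0.26 to 0.41. The number that were higher was 6 without cytoplasmic control array 1 and 7 without polysomal control array 1. Of all genes, 1691 and 1645 were higher in these settings, against 2205 in the main fit.

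In 4EGI-1 cells fewer genes differed between the fractions. Polysomal signal was higher than cytoplasmic signal for 8 genes (17.8%) and lower for 2 (4.44%), where 9.56% of all genes tested were higher and 7.15% lower. Nop16 (0.62), Rrs1 (0.55), Utp18 (0.49), Ebna1bp2 (0.42), Mphosph10 (0.38), Wdr12 (0.37), Noc4l (0.32) and Nop14 (0.30) were higher. Polr1a, at -0.31 ± 0.07 (limma adjusted p = 0.0106), and Utp20, at -0.35 ± 0.11 (adjusted p = 0.0346), were lower, while Heatr1 (-0.16), Mybbp1a (0.00) and Rrp12 (-0.29) did not pass. With 1 array left out, the number that were higher was 3 without polysomal 4EGI-1 array 1 or 3 and 5 without cytoplasmic 4EGI-1 array 3, and the number that were lower was 4 without cytoplasmic 4EGI-1 array 2 and 1 without cytoplasmic 4EGI-1 array 1 or 3 or any one polysomal 4EGI-1 array. Of all genes, 546, 681 and 1036 were higher in the first 3 of these settings, against 1260 in the main fit. Without cytoplasmic 4EGI-1 array 2, 900 of all genes were lower, against 942 in the main fit. In the settings with 1 lower gene, 498 to 815 of all genes were lower. With each array centred on its median, the split was 14 higher and 0 lower in 4EGI-1 cells and 13 higher and 8 lower in control cells. All genes shifted the same way under this centring, from 1260 higher and 942 lower to 2205 and 427 in 4EGI-1 cells and from 2205 and 1614 to 2760 and 933 in control cells, so the shift is not particular to the 45. Malat1, an RNA kept in the nucleus, averaged 11.03 and 10.52 in the cytoplasmic and polysomal arrays of control cells and 11.55 and 10.23 in those of 4EGI-1 cells; its part in these differences was not tested.

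**Figure D5:**
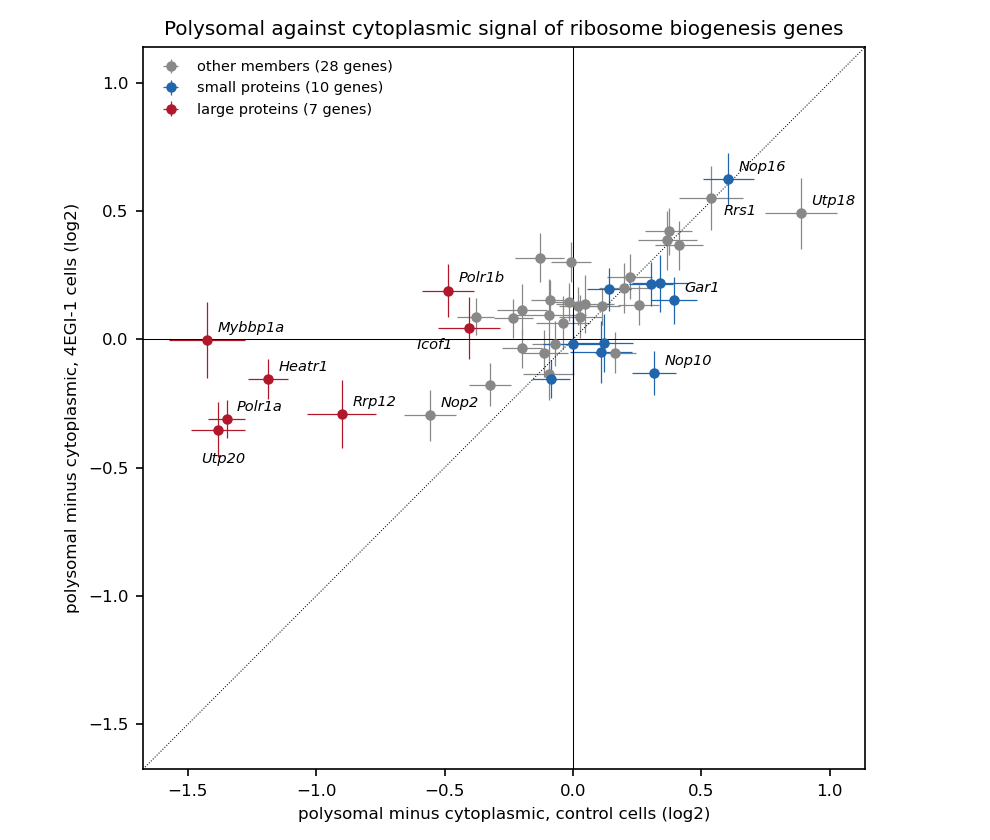
Polysomal minus cytoplasmic signal (log2, bars of 1 SE) of 45 genes in control cells (horizontal axis) and in 4EGI-1 cells (vertical axis); colours as for the plot of both effects, and the dotted line marks equal values. The 7 genes for large proteins lie between -1.42 and -0.40 in control cells and between -0.35 and 0.19 in 4EGI-1 cells, while Nop16 and Rrs1 lie on the dotted line.

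The start regions of the genes were read from RefSeq promoters on assembly GRCm38.p6, 250 bases before to 50 bases after each start, which matched 39 of the 45 genes. The E-box CACGTG, a palindrome that reads the same on both strands and is the core motif bound by MYC and related factors, was present in 8 of 39 genes (20.5%), against 11.3% of 10172 protein-coding genes tested and 8.09% of all 27025 genes in the table. Of the genes with a promoter entry it lay in 3 of the 13 that rose in polysomal RNA (Mybbp1a, Utp20 and Nop2), in 0 of the 6 that fell and in 5 of the 20 others, so the motif was found both among genes that rose and among genes that did not pass. The sequences below show the motif in capitals in its surroundings, on the strand of the gene. In Imp4, Nop2 and Utp18 it starts 121, 60 and 20 bases before the start; in Mybbp1a, Pes1, Pno1, Utp20 and Wdr43 it begins at transcript base 41, 3, 38, 38 and 18.
Mybbp1a, chr11:72441347-72441376, plus strand: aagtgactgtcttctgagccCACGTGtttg
Utp20, chr10:88826765-88826794, minus strand: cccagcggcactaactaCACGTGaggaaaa
Nop2, chr6:125131796-125131855, plus strand: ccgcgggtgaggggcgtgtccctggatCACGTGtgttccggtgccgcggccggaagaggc
Wdr43, chr17:71616220-71616249, plus strand: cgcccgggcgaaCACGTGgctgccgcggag
Pno1, chr11:17211540-17211569, minus strand: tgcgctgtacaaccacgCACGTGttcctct
Pes1, chr11:3963965-3963994, plus strand: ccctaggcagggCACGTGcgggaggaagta
Imp4, chr1:34439681-34439740, plus strand: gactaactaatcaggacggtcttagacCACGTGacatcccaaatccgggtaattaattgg
Utp18, chr11:93885767-93885826, minus strand: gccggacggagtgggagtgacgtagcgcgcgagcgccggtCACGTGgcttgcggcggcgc

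A start with C followed by 4 pyrimidines, the form of the terminal oligopyrimidine motif of ribosomal protein messages, was at the RefSeq start of 0 of 39 genes, against 2.87% of the protein-coding genes tested. That says only that these letters are not at these annotated starts.

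Several of these genes host snoRNAs in their introns. By position alone, since strand was not available, 18 small RNA genes lay inside 6 of the 45 genes, and 4 of them were on the array and tested. Snord57, inside Nop56, fell by 0.54 in polysomal RNA (SE 0.12, limma adjusted p = 0.00346), where its host rose by 0.31. The polysomal changes of the others did not pass, at 0.70 for Snord82, -0.38 for Snora75 and -0.22 for Snord53. In control cells polysomal minus cytoplasmic signal was -1.86 for Snord57, -2.83 for Snord82 inside Ncl and -0.52 for Snord53 inside Wdr43, and all 3 passed. Snora75 inside Ncl had a value of -0.47 there and did not pass (adjusted p = 0.0935). Mature snoRNAs are nucleolar and are not translated.

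A second list of 103 ribosome biogenesis genes, of which 100 were tested, was set beside the first. In polysomal RNA 19 rose and 7 fell, with a median of 0.04, where 13.0% and 12.1% of all genes tested did so. In cytoplasmic RNA 5 rose and none fell by the limma test, against 10.1% and 7.79% of all genes. At an unadjusted p under 0.05, 16 rose and 5 fell, and all genes were not counted at that threshold. Efl1, a GTPase that releases a large-subunit anti-association factor, rose by 1.03 ± 0.08, Nat10, an RNA acetyltransferase, by 0.87 ± 0.08 and Mtrex, the helicase of the nuclear exosome, by 0.83 ± 0.07 in polysomal RNA (limma adjusted p of 4.56e-07, 2.22e-06 and 1.56e-06). Emg1, a small methyltransferase, Fcf1, a small processome nuclease-like protein, and Riok3, an atypical kinase, fell by 0.50, 0.57 and 0.31 (adjusted p of 0.000373, 0.00284 and 0.00985). In the difference of effects 10 were positive, Nat10 (0.94), Mtrex (0.91) and Efl1 (0.80) with the largest values, and Riok3 was negative at -0.60 (adjusted p = 0.00778), against 2.31% and 0.607% of all genes. In control cells 35 were higher and 17 lower in polysomal than in cytoplasmic RNA, where 16.7% and 12.2% of all genes were. In 4EGI-1 cells 27 were higher and 4 lower, beside 9.56% and 7.15% of all genes.

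This list holds 10 further genes of polymerase I and its initiation factors, named after their values were seen. Taf1a, a subunit of the promoter selectivity factor, rose in both fractions, by 0.51 ± 0.10 in cytoplasmic and 0.59 ± 0.10 in polysomal RNA (limma adjusted p of 0.00327 and 0.000691). Polr1f rose by 0.46 in cytoplasmic RNA (adjusted p = 0.00417). Polr1d, a small subunit shared with RNA polymerase III, fell by 0.34 in polysomal RNA (adjusted p = 0.0171). In the difference of effects, where few genes passed at all (2.31% and 0.607%), none of the 10 did by limma, and 1 was negative at an unadjusted p under 0.05.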

How the data were processed

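RNA of 12 samples was measured on single-colour whole-transcript arrays. The deposited table gives log2 values of 34760 probe sets, made by the authors with RMA per the submitters' processing notes; its version is not given in the sources used here. Names came from the platform annotation (21640 with 1 symbol, 1321 with several, 11799 with none; only the first were used). Each gene took the probe set with the highest mean over all arrays, and genes under the 40th percentile of probe sets (6.00) were left out, leaving 13180 of 19937. One limma 3.58.1 fit (R 4.3.3; lmFit, eBayes without trend) of 4 group means gave 5 comparisons, with Benjamini-Hochberg adjustment and a threshold of 0.05. The number of arrays limits the precision.

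Array values are given, per role, for the 3 genes with the smallest p in polysomal RNA, the 2 in the difference of effects and the 1 in cytoplasmic RNA; of the second list, the 3 that rose and 3 that fell with the smallest p in polysomal RNA are named. Members, lists and sizes were chosen with earlier results of these data known. No protein table was used here, so hand-made size lists stand in for protein length, and protein composition and other length limits were not analysed. The pyrimidine motif and the second probe sets of Fbl and Wdr12 were added after the data were seen. Probe sets of Npm1 that carry several symbols were left out. Alternatives were quantile normalization, median centring, other filters, probe set means, separate fits, array weights, a trend, a replicate block and leaving out each array.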

Additional observations from a re-analysis of the deposited data

Results flagged for a closer look

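For 6 genes the effect of 4EGI-1 differed between polysomal and cytoplasmic RNA by a direct test of the difference (limma, adjusted p under 0.05). The polysomal change minus the cytoplasmic change was 1.42 for Mybbp1a, 1.04 for Polr1a, 1.03 for Heatr1, 1.03 for Utp20, 0.68 for Polr1b and 0.47 for Ddx21. For Mybbp1a, Polr1a, Heatr1 and Utp20 this call held under every alternative that gave a difference, and Polr1b and Ddx21 lost it under some of them. The separate fits to each fraction give no such difference, so the call was not assessed there. In each of the 6 genes the polysomal control arrays were lower than the polysomal 4EGI-1 arrays without overlap. This follows largely from how the genes were picked and is no separate support. Groups of 3 arrays were not searched for outlying samples.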

How the results depend on the processing

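Of 2925 changes of single genes under alternatives, 2839 stayed on the same side of the threshold, and none of those that had passed turned sign. Of these 2839, 95 were below the threshold with another sign. Leaving out an array of 1 fraction also leaves the size of a change within the other fraction as it was, so such entries could move only in p. In cytoplasmic RNA the genes that rose numbered 1 with median centring, no filter or array weights and 0 in the fit to that fraction alone, and those that fell numbered 2 in that fit and 3 with array weights. Of all genes, 1119, 1266, 891 and 731 rose in these settings, in this order, against 1325 in the main fit. Those that fell numbered 369 in the fit to that fraction alone and 561 with array weights, against 1027. For polysomal minus cytoplasmic RNA in 4EGI-1 cells, median centring gave 14 higher and 0 lower, and no filter gave 1 lower. Of all genes, centring gave 2205 higher and 427 lower, and no filter 769 lower, against 1260 and 942 in the main fit. A mean-dependent prior gave 1 negative difference of effects (Nop10), where all genes had 108 with it and 80 in the main fit. The causes were not tested. Centring moved the median of all genes by at most 0.0976. The fit with the replicate number as a block gave 2 higher and 7 lower genes in cytoplasmic RNA, 14 and 6 in polysomal RNA, 7 positive and 0 negative differences of effects, and 11 and 11 in control and 8 and 3 in 4EGI-1 cells for polysomal minus cytoplasmic RNA; Nip7 (-0.33) and Noc4l (-0.25) passed in cytoplasmic RNA and Rrp12 (0.61) in the difference. Of all genes, 1462 rose and 1312 fell in cytoplasmic RNA with this block, against 1325 and 1027 in the main fit. The labels do not say that a number marks 1 culture. Deviations from group means of samples with the same number correlated at -0.22, 0.56 and 0.52 between cytoplasmic conditions, 0.08, 0.16 and -0.06 between polysomal ones, and, between fractions, 0.02, 0.14 and 0.13 in control and 0.04, 0.23 and 0.02 in 4EGI-1 cells. In no set were all 3 above 0.1, and the main fit was planned without a replicate block, so the block was kept as an alternative. Between the fractions of control cells each sample correlated best with its own number, where the highest values with another number were 0.01, -0.02 and 0.01. Between cytoplasmic conditions control arrays 2 and 3 did so too, against 0.41 and -0.26 with another number. Control array 1 did not, at 0.26 with another number. A link between samples of the same number is thus not excluded.

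Leaving out single arrays gave 1 to 3 higher and 3 to 9 lower in cytoplasmic RNA (9 without control 2 or 4EGI-1 3; 3 without control 3 or 4EGI-1 1 or 2; 1 higher without control 1 or 3 or 4EGI-1 1 or 2), 11 to 14 and 5 to 6 in polysomal RNA, with 4 to 8 positive and 0 to 1 negative differences of effects (1 negative without cytoplasmic control 2 or 4EGI-1 3). Polysomal minus cytoplasmic RNA gave 6 to 11 and 9 to 11 in control cells (6 without cytoplasmic control 1, 7 without polysomal control 1), and 3 to 9 and 1 to 4 in 4EGI-1 cells (3 higher without polysomal 4EGI-1 1 or 3; 5 without cytoplasmic 4EGI-1 3; 4 lower without cytoplasmic 4EGI-1 2; 1 without cytoplasmic 4EGI-1 1 or 3 or any polysomal 4EGI-1 array). The counts of all genes moved too, to 862 to 1513 higher and 585 to 1615 lower in cytoplasmic RNA. They were 1311 to 1850 and 1146 to 1879 in polysomal RNA, and 179 to 411 and 19 to 259 in the difference. Polysomal minus cytoplasmic RNA gave 1645 to 2347 and 1146 to 1924 in control cells, and 546 to 1509 and 498 to 1143 in 4EGI-1 cells. The large list minus the small list ranged from 0.0636 to 0.38 in cytoplasmic RNA, 1.33 to 1.44 in polysomal RNA, 0.99 to 1.18 in the difference, -1.53 to -1.35 in control cells and -0.25 to -0.19 in 4EGI-1 cells. The cytoplasmic arrays spread more than the polysomal ones, which limits what they can show.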
